A study of Sus scrofa with 12 samples.

Results

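The comparison described here sets porcine oocytes after 46h of in vitro maturation against oocytes at 0h, that is metaphase II against germinal vesicle. Every gene was taken whose FPKM averaged 1 or more across the 8 libraries of these 2 stages, which gave 7016 of the 31908 genes listed. FPKM is the number of sequenced fragments of a gene relative to the length of its transcript and to the fragments of the library. Each stage had 4 libraries of 20 oocytes, out of 12 libraries in the series, and the other 4 were made at 22h. The oocytes came from cumulus-oocyte complexes aspirated from antral follicles of prepubertal gilts, whose ovaries were collected at a slaughterhouse, and no allele or added drug separated the stages. Complexes at 46h had been cultured in maturation medium with porcine follicular fluid, epidermal growth factor and gonadotropins, those at 0h had not, and the cumulus cells were removed before lysis at both stages. The 46h group is named for its time in culture, and nuclear stage was not read for each oocyte, so some oocytes in it may not have reached metaphase II. RNA was amplified by SMART-Seq2, in which an oligo-dT primer on the poly(A) tail begins the cDNA, so a longer or shorter tail and a larger or smaller amount of RNA cannot be told apart in these values. Nor can fewer contributing oocytes and less RNA per oocyte.

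A fully grown oocyte waits in prophase with its nucleus, the germinal vesicle, intact, and it holds a store of mRNA made during growth. On resumption of meiosis transcription has ceased, and the oocyte completes the first division and stops again at metaphase II, so that the store can only be translated, silenced or destroyed. Translation of dormant mRNA is switched on by lengthening of the poly(A) tail, which the protein CPEB1 directs through a U-rich sequence in the 3' untranslated region, the cytoplasmic polyadenylation element. Destruction runs largely through the CCR4-NOT deadenylase, which the adaptor BTG4 brings to translating mRNA.

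The range of expression was read first as a whole. The 8 libraries were fitted with limma on log2(FPKM + 1). A gene was called where the Benjamini-Hochberg adjusted p lay under 0.05 and the fold change was more than 1.5. Fold changes are given on the log2(FPKM + 1) scale, which understates the change of low genes. Of the 7016 genes, 1177 (16.8%) were called higher at 46h and 2743 (39.1%) lower, together 3920 (55.9%), and 3096 were not called. The falls were also larger than the rises. The median fold change was 1.92 among genes called higher and 3.13 among genes called lower. Over 4-fold changes were found in 27 genes called higher and 1017 called lower, and over 16-fold changes in 5 and 228. The 4 libraries of one stage lay wholly above or below those of the other for 1045 of the genes called higher and for 2592 of those called lower.

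These directions are relative to the library total. Over all genes tested the median log2 fold change was -0.25 in FPKM as deposited, -0.004 after median-of-ratios scaling and 0.37 after quantile normalization. Genes called higher made up 43.5% of the calls under the former of these scalings and 61.7% under the latter. A gene or class is therefore best read against the median of all genes, and class medians below are given with that shift in view. Read counts were not used here, so the depth of each library is unknown, and the spread over 4 libraries is the only measure of precision.

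The 0h libraries spread over more genes than the 46h libraries did. Genes at or above 1 FPKM numbered 7071, 6939, 7342 and 7895 in the 0h libraries and 5927, 5819, 6076 and 5970 in the 46h libraries. At or above 100 FPKM there were 771, 764, 752 and 716 genes at 0h and 598, 629, 633 and 635 at 46h. The stages did not overlap at either level, nor at 10 FPKM. The 100 highest genes of each library held 59.2% to 65.5% of its FPKM at 0h and 70.7% to 72.6% at 46h. The Shannon entropy of the FPKM shares, which is higher when expression is spread more evenly, was 8.92, 8.79, 8.66 and 8.42 bits at 0h and 7.78, 7.91, 7.97 and 7.90 bits at 46h. For each of these measures the exact two-sided permutation test of 4 against 4 libraries gave p = 0.0286, the smallest that its 70 arrangements allow, and 0.0322 after adjustment over the 9 measures of library make-up. Total FPKM was 697468 to 782309 at 0h and 779556 to 802184 at 46h, which overlapped (exact two-sided p = 0.0571). The 46h mean was 54853 FPKM above the 0h mean, and with the mitochondrially encoded genes taken out the difference turned to -42446 FPKM. The share of the 10 highest genes was 24.3%, 24.8%, 28.4% and 34.3% at 0h and 37.3%, 35.4%, 35.1% and 35.6% at 46h, so replicate 4 of 0h came close to the 46h libraries. With the mitochondrially encoded genes taken out, that difference no longer passed the test. Replicate 4 also correlated least with the other 0h libraries (Pearson's r across the genes tested from 0.934 to 0.970, against 0.979 to 0.987 among the other 3). Without it, 4008 genes were called, 1306 higher and 2702 lower.

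**Figure D1:**
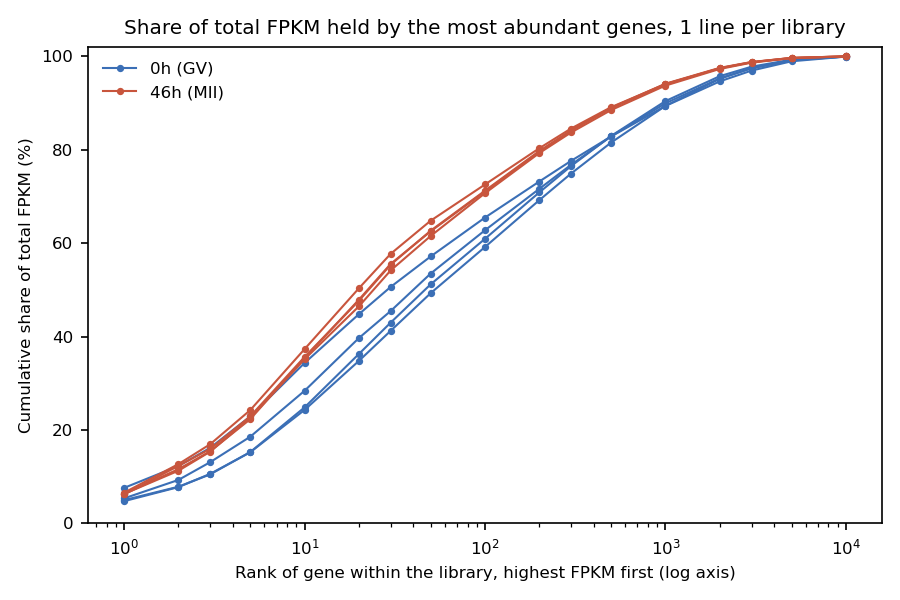
Cumulative share of total FPKM in percent (y axis) against the number of highest genes counted (x axis, log scale), 1 line for each of the 8 libraries, coloured by stage. The 46h lines reach 50% within 20 to 24 genes, whereas the 0h lines take 29 to 53.

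The number of genes needed for a given share of the transcriptome showed the same narrowing. At 0h, 53, 47, 40 and 29 genes made up 50% of total FPKM, and at 46h 20, 23, 24 and 23 did. For 90% the numbers were 957 to 1076 at 0h and 558 to 594 at 46h. As a set, genes called higher held 23.7% of total FPKM at 0h and 53.9% at 46h, and those called lower held 39.4% and 8.23%. These shares follow from the calls themselves and are given as a description of how much of the transcriptome the calls cover. Among the genes called lower, 985 had a mean under 1 FPKM at 46h, whereas 41 of the genes called higher had a mean under 1 FPKM at 0h. Such genes passed the filter only through their higher stage. Of all genes tested, 1126 reached a mean of 1 FPKM at 0h alone and 112 at 46h alone, so these counts are partly set by the filter.

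Calls were then counted by abundance. When the genes were cut into 10 equal bins by their mean over both stages, the lowest bin (means up to 1.48 FPKM) held 3.42% genes called higher and 39.2% called lower. Bin 6, of middle level, held 17.0% and 41.0%. In the highest bin, with means from 104 to 46198 FPKM, 37.6% were called higher and 32.3% lower. Its median log2 fold change was 0.26, which lay 0.51 above that of all genes. The share of genes called higher went up at every step from the lowest bin to the highest, while the share called lower stayed between 32.3% and 43.4%. The bins and the filter rest on the same mean of the 8 libraries, and of the genes tested 1126 reached a mean of 1 FPKM at 0h alone and 112 at 46h alone, so genes near the filter often passed through 1 stage. Low values are compressed by the pseudocount of 1, and with one of 0.1 the lowest bin lay -0.351 from all genes in place of -0.125. After median-of-ratios scaling the highest bin lay 0.578 above all genes. After quantile normalization, which gives every library the same distribution of values, it lay 0.043 above them, so its lead depends on the scaling.

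**Figure D2:**
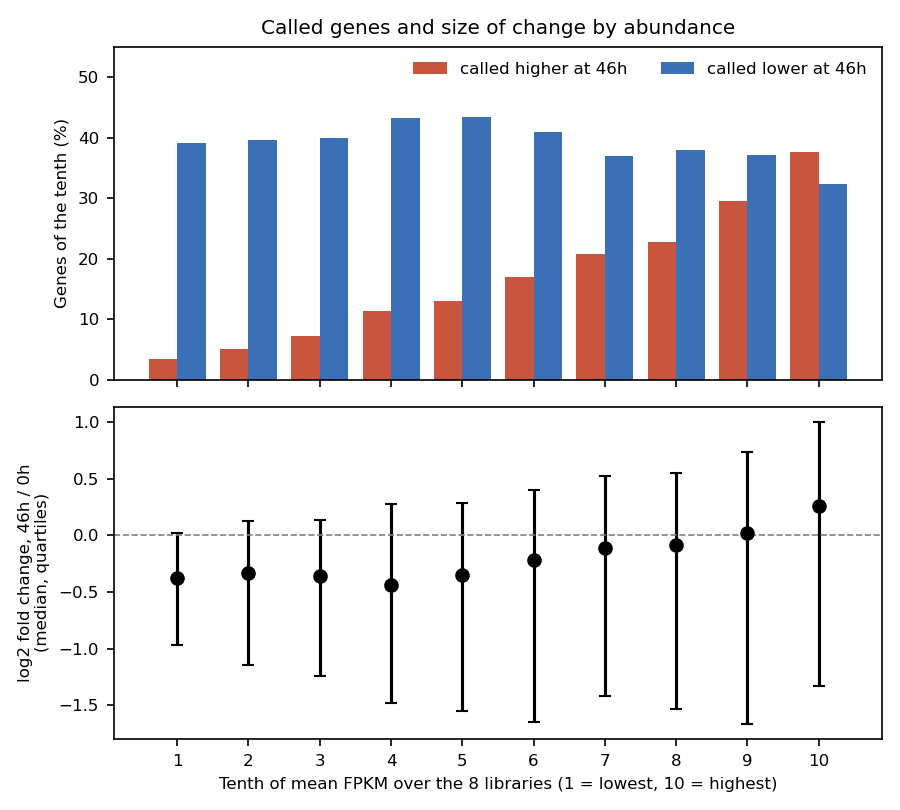
Percent of genes called higher and called lower at 46h against 0h (y axis) in 10 equal bins of mean FPKM over the 8 libraries (x axis, lowest to highest), and below it the median log2 fold change with quartiles of each bin. The percent called higher runs from 3.42 in the lowest bin to 37.6 in the highest, and the percent called lower from 39.2 to 32.3.

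Shares were also read by rank. The 100 genes of highest mean over the 8 libraries took 57.5% to 62.6% of total FPKM at 0h and 68.9% to 71.3% at 46h. Among these 100, 38 were called higher and 26 lower, beside 16.8% and 39.1% of all genes. When the 100 highest genes were taken in each library, the 46h mean was 9.299 percentage points above that at 0h, and 6.099 with the mitochondrially encoded genes taken out. The share of the mitochondrially encoded genes was itself 12.05 points higher at 46h. The next 400 genes took 18.6% to 23.2% at 0h and 16.1% to 17.8% at 46h. Beyond rank 3000, 4016 genes together took 2.16% to 3.04% at 0h and 1.40% to 1.56% at 46h. Among them, 364 were called higher (9.06%, beside 16.8% of all genes) and 1650 lower (41.1%, near the 39.1% of all genes). The lists of the most abundant genes turned over in part. The 10 highest genes of the stages shared 6 members, the 100 highest shared 60 and the 1000 highest shared 680. Of the 40 genes that left the 100 highest, 36 were called lower, beside 39.1% of all genes. Of the 40 that entered, 36 were called higher, beside 16.8%. Leaving and entering were read from the same values as the calls, so these counts follow largely from the choice of the genes. The departures went further than the arrivals had come. Of the 100 highest genes at 0h, 11 were beyond rank 1000 at 46h, whereas none of the 100 highest at 46h had been beyond rank 1000 at 0h.

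The highest gene at both stages had an Ensembl identifier without a symbol (ENSSSCG00000000296), at 42224 ± 11852 FPKM (SD, n = 4) at 0h and 50172 ± 1739 at 46h, and was not called. UBB, which encodes polyubiquitin, stood at 25072 ± 5851 and 23723 ± 2176 FPKM, with overlapping libraries. The most abundant transcripts of the oocyte thus included some with like levels at the ends of maturation and others that moved widely.

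BTG4, the adaptor that recruits the CCR4-NOT deadenylase, lies on chromosome 9 (chr9:39253116-39281327, minus strand, Sscrofa11.1). It read 15842, 17621, 15649 and 13936 FPKM in the 0h libraries and 30934, 26454, 28036 and 27896 FPKM at 46h. Every 46h library was above every 0h library, and BTG4 went from rank 8 to rank 4 (1.80-fold, adjusted p = 0.000352 by limma). ID3, an inhibitor of helix-loop-helix transcription factors, read 15896, 16899, 15630 and 16325 FPKM at 0h and 23319, 26999, 29263 and 25555 FPKM at 46h (1.62-fold, adjusted p = 0.0012 by limma). OOSP3, a gene of the oocyte-secreted protein family, read 10012, 13415, 10840 and 10023 FPKM at 0h and 27588, 29838, 27031 and 27769 FPKM at 46h (2.55-fold, adjusted p = 1.48e-05 by limma). For all 3 the stages did not overlap. The calls of BTG4 and ID3 were lost under quantile normalization (adjusted p = 0.163 and 0.231), while their log2 fold changes stayed above 0.

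The counterpart at the top of the 0h list was C6orf52, the gene with the third highest mean at 0h. It read 16262, 15010, 28627 and 28605 FPKM at 0h and 240, 200, 51.5 and 557 FPKM at 46h (109-fold lower, adjusted p = 1.56e-06 by limma). No other member of the 10 highest genes at 0h fell by over 2-fold. FTL, the light chain of the iron store ferritin, went from 16426 ± 543 to 9425 ± 1051 FPKM (SD, n = 4), a fall of 1.75-fold whose fold change dropped below the threshold after median-of-ratios scaling (log2 fold change -0.49). DNMT1, the maintenance DNA methyltransferase, read 11380, 11983, 13988 and 20364 FPKM at 0h and 9920, 9469, 7320 and 7505 FPKM at 46h. It was called lower at 1.66-fold, but without replicate 4 of 0h, its highest library, the log2 fold change was -0.55 and the call was lost.

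**Figure D3:**
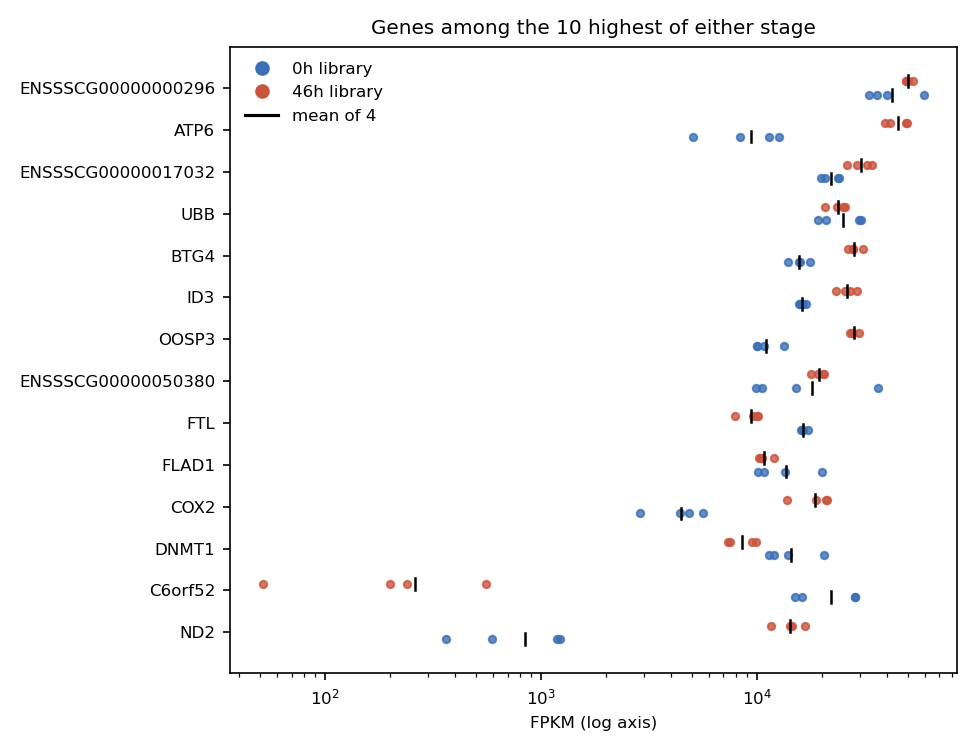
FPKM (x axis, log scale) of the genes among the 10 highest of either stage (y axis), 1 point per library coloured by stage, with a bar at the mean of 4 libraries. C6orf52 is the gene whose 46h points lie farthest to the left of its 0h points, and ND2, ATP6 and COX2, all mitochondrially encoded, are those whose 46h points lie farthest to the right.

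Genes of the mitochondrial genome, which codes for 13 subunits of the respiratory chain, rose together. One of the 13, ATP8, was listed at 0 in all 8 libraries, and the other 12 passed the filter and were called higher, beside 16.8% of all genes tested. Their median log2 fold change was 2.77, and it was 2.67 or more under each of the other scalings that kept these genes. Their share of total FPKM was 1.79%, 3.76%, 3.75% and 3.28% in the 0h libraries and 16.5%, 14.8%, 12.8% and 16.7% in the 46h libraries. ATP6, a subunit of the ATP synthase, read 5076, 12703, 11419 and 8388 FPKM at 0h and 49083, 41468, 39370 and 49565 FPKM at 46h (5.04-fold). COX2, here the mitochondrially encoded subunit of cytochrome c oxidase, read 2875, 5626, 4835 and 4408 FPKM at 0h and 21172, 18723, 13731 and 20976 FPKM at 46h. Both were above 0h in every 46h library. ND2, a subunit of NADH dehydrogenase, went from 842 ± 431 to 14281 ± 2064 FPKM and entered the 10 highest genes. CYTB, cytochrome b of complex III, went from 521 ± 255 to 9478 ± 1622 FPKM. The largest rise among all genes with a symbol was that of ND6, another subunit of NADH dehydrogenase, at 49.8, 166, 249 and 127 FPKM at 0h and 5545, 3781, 5218 and 4618 FPKM at 46h. ND6 is coded on the opposite strand from the other mitochondrial protein genes, and SMART-Seq2 reads do not carry the strand, so its reads and those of transcripts antisense to it cannot be told apart. ND4L and ND4 overlap each other, and so do ATP8 and ATP6, so the split of reads within these pairs is uncertain. The 22h libraries, which took no part in the test, lay between the stages for ND2 (5827 to 9871 FPKM) and ATP6 (20159 to 28862 FPKM). They did not for ND3, whose 22h mean of 899 FPKM exceeded its 46h mean of 785.5.

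The nuclear-encoded side of the same organelle went the other way. Of 64 matched genes for nuclear-encoded subunits of the respiratory chain, 53 were tested, and 41 were called lower and 2 higher, beside 39.1% lower and 16.8% higher among all genes. Their median log2 fold change was -2.13 and lay below 0 under every scaling. ATP5MC1, which codes for the proton-carrying ring of the ATP synthase, read 1074, 993, 1356 and 2044 FPKM at 0h and 1.11, 5.31, 7.39 and 4.53 FPKM at 46h (263-fold lower, adjusted p = 1.82e-08 by limma). The gene went from rank 72 to rank 3562 with no overlap. NDUFB7, an accessory subunit of NADH dehydrogenase, read 137, 136, 206 and 357 FPKM at 0h and 0, 0.40, 1.09 and 1.55 FPKM at 46h. COX7A2L, an assembly factor of respiratory supercomplexes and the most abundant gene of the list, went from 3711 ± 260 to 1668 ± 139 FPKM. ATP5F1C, the rotor shaft of the ATP synthase, was one of the 2 that rose, from 251 ± 39.9 to 482 ± 42.0 FPKM (SD, n = 4). The list took 1.37% to 1.65% of total FPKM at 0h and 0.437% to 0.526% at 46h.

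Genes for the mitochondrial ribosome and for import fell in most cases, and carriers were mixed. Of 55 mitochondrial ribosomal protein genes tested, 40 were called lower and 6 higher (median log2 fold change -1.998). MRPL37, a protein of the large subunit, went from 393 ± 108 to 7.07 ± 2.48 FPKM. MRPL44, another protein of the large subunit, rose from 33.3 ± 3.22 to 134 ± 11.5 FPKM, so members of the same ribosome went both ways. Of 27 genes for mitochondrial import and assembly, 22 were called lower and none higher. TOMM20, a receptor of the outer membrane translocase, read 100, 122, 136 and 159 FPKM at 0h and 1.63, 4.15, 1.43 and 2.67 FPKM at 46h. TOMM7, a small subunit of the same translocase, was not called, at 625 ± 439 and 594 ± 63.1 FPKM. Of 20 mitochondrial carriers, which move metabolites and nucleotides over the inner membrane, 11 were called lower and 5 higher, both larger shares than the 39.1% and 16.8% of all genes. After quantile normalization 4 were lower and 8 higher, beside 1799 and 2896 of all 7016 genes, so neither share was larger than that of all genes there. SLC25A31, an ADP/ATP carrier of germ cells, rose from 17.9 ± 4.04 to 46.5 ± 6.87 FPKM.

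**Figure D4:**
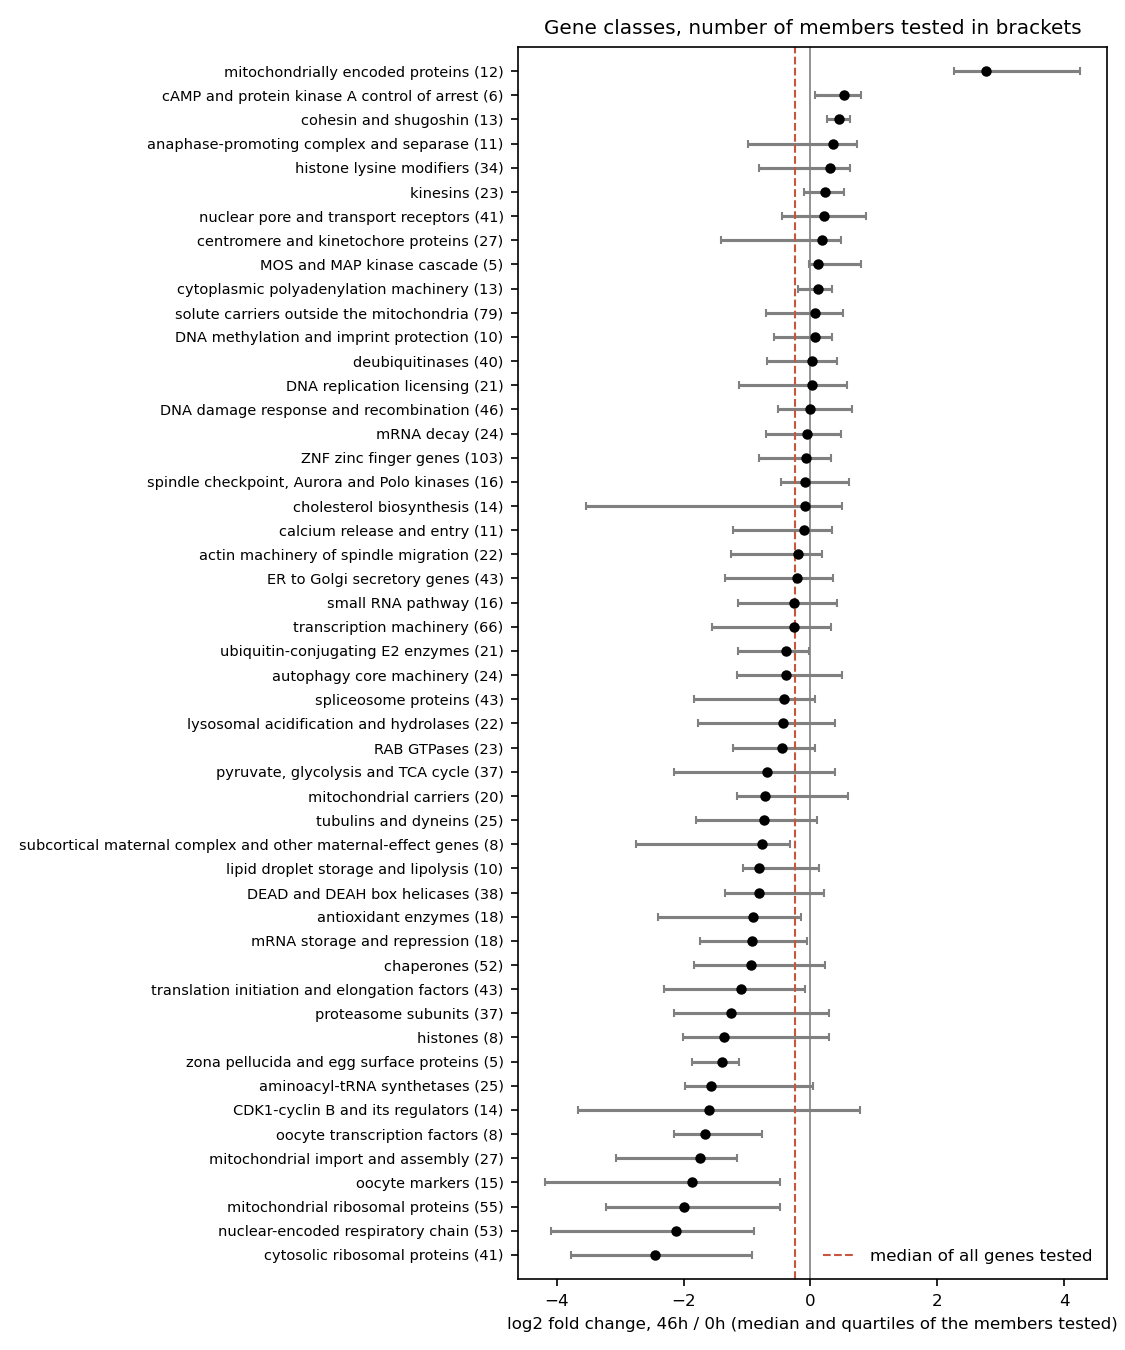
Median log2 fold change, 46h minus 0h on the log2(FPKM + 1) scale (x axis), of gene classes (y axis), each with its interquartile range, and a line at the median of all genes tested, -0.25. Mitochondrially encoded proteins lie at 2.77, and cytosolic ribosomal proteins, at -2.46, lie lowest.

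In each list of protein synthesis genes most of those tested were called lower. Of 50 matched cytosolic ribosomal protein genes, 41 were tested, and 31 were called lower (75.6%) and 2 higher (4.88%), beside 39.1% and 16.8% of all genes, with a median log2 fold change of -2.46 that was -1.88 or lower under each scaling. Ribosomal protein genes have many processed pseudogenes in mammals, and how reads were shared among such copies is not known here, so values of single members are uncertain. RPL23A, of the large subunit, read 812, 703, 1023 and 916 FPKM at 0h and 1.19, 0.38, 1.37 and 0.73 FPKM at 46h (456-fold lower, adjusted p = 4.31e-10 by limma). RPLP1, a protein of the ribosomal stalk, went from 757 ± 260 to 177 ± 41.8 FPKM. RPLP0, to which RPLP1 binds in the stalk, was called higher, with 107, 120, 114 and 108 FPKM at 0h and 354, 326, 374 and 211 FPKM at 46h. Its 46h libraries were all above its 0h libraries, against the direction of the class. RPL29 and RPS18, of the large and the small subunit, were listed at 0 in all 46h libraries, with 0h means of 13.5 and 7.45 FPKM.

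Of 43 genes for translation initiation and elongation factors, 25 were called lower (58.1%) and 7 higher (16.3%), beside 39.1% and 16.8% of all genes (median -1.10). EIF6, which keeps the ribosomal subunits apart, went from 499 ± 24.5 to 3.87 ± 0.88 FPKM. EIF3M, a subunit of initiation factor 3 and the most abundant of the list, went from 4275 ± 1195 to 562 ± 29.6 FPKM. EIF1, which guards the choice of start codon, rose from 492 ± 44.1 to 1319 ± 420 FPKM. Of 25 aminoacyl-tRNA synthetase genes and their scaffold proteins, 17 were called lower, also a larger share than of all genes, and 3 higher, yet their summed share of total FPKM was 0.149% at 0h and 0.170% at 46h by the median of the libraries. RARS2, the mitochondrial arginyl-tRNA synthetase, rose from 260 ± 113 to 796 ± 82.8 FPKM, and AIMP1, a scaffold of the synthetase complex, fell from 176 ± 56.6 to 17.8 ± 1.06 FPKM.

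Genes of protein folding and turnover were mixed. Of 52 chaperone genes, 28 were called lower (53.8%) and 7 higher (13.5%), beside 39.1% and 16.8% of all genes. Their share of total FPKM went from between 3.03% and 4.05% at 0h to between 0.947% and 1.08% at 46h. Much of the 0h share was HSPE1 and DNAJC15, and the median log2 fold change of the list was -0.93. HSPE1, the cochaperonin of the mitochondrial matrix and the most abundant of them over the 8 libraries, read 6146, 6440, 9584 and 16462 FPKM at 0h and 2309, 1824, 2061 and 2232 FPKM at 46h. The mean of DNAJC15 went from 10589 to 1155 FPKM. HSPB1, a small heat shock protein, rose from 5.73 ± 1.91 to 18.7 ± 11.3 FPKM. Of 37 proteasome subunits and regulators, 22 were called lower (59.5%) and 6 higher (16.2%). PSMB7, a catalytic subunit of the core, fell from 529 ± 19.2 to 34.1 ± 6.03 FPKM, while PSMA5, an alpha subunit of the same core, rose from 215 ± 11.4 to 445 ± 14.4 FPKM. Among 21 ubiquitin-conjugating enzymes, 8 fell (38.1%) and 3 rose (14.3%), near the shares of all genes. UBE2D3, which works with many ubiquitin ligases, rose from 4119, 4027, 3138 and 1927 FPKM at 0h to 6222, 7833, 7652 and 7649 FPKM at 46h. UBE2C, the partner of the anaphase-promoting complex, fell from 1253 ± 381 to 437 ± 40.5 FPKM. Of 40 deubiquitinases, 10 fell and 5 rose, to be read beside 39.1% and 16.8% of all genes. This split turned to 8 and 11 after median-of-ratios scaling (all genes 2405 and 1852). After quantile normalization it turned to 4 and 21 (all genes 1799 and 2896). The split of all genes thus moved the same way. The median of the list lay above that of all genes by 0.27 in FPKM as deposited. It lay above it by 0.316 after median-of-ratios scaling and by 0.25 after quantile normalization. OTUB1, one of the deubiquitinases that fell, went from 661 ± 187 to 7.15 ± 1.90 FPKM.

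The genes that drive meiosis itself did not follow one direction. Of 14 tested genes of CDK1, the B cyclins and their regulators, 8 were called lower (57.1%) and 4 higher (28.6%), beside 39.1% and 16.8% of all genes. CDK1, the kinase of M-phase promoting factor, read 110, 134.6, 89.8 and 65.9 FPKM at 0h and 0.24, 0.32, 0.22 and 0.32 FPKM at 46h (76.8-fold lower, adjusted p = 1.84e-09 by limma). Its partner CCNB1, cyclin B1, read 877, 827, 503 and 254 FPKM at 0h and 1081, 1185, 1183 and 1323 FPKM at 46h (2.16-fold higher, adjusted p = 0.0144 by limma). All 46h libraries were below the 0h range for CDK1 and above it for CCNB1, so transcripts for the partners of the same complex moved apart. WEE2, the oocyte kinase that inhibits CDK1, read 2008, 1950, 950 and 222 FPKM at 0h and 1888, 3085, 3518 and 3070 FPKM at 46h. It was called at 2.95-fold (adjusted p = 0.0378 by limma), but its stages overlapped, and the adjusted p was 0.0705, 0.0851, 0.0925 and 0.0799 without replicate 3 of 0h and replicates 2, 3 and 4 of 46h. MOS, the kinase that starts the MAP kinase cascade of metaphase arrest, read 1634, 1477, 1217 and 669 FPKM at 0h and 465, 681, 1060 and 564 FPKM at 46h. Its call (adjusted p = 0.0369 by limma) was lost when any 1 of 6 of the 8 libraries was left out, with an adjusted p of 0.0701 to 0.112.

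Classes of chromosome attachment and segregation, other than tubulins and dyneins, had medians above that of all genes. Among 27 proteins of the centromere and kinetochore, which attach chromosomes to the spindle, 9 were called lower (33.3%) and 6 higher (22.2%), near the 39.1% and 16.8% of all genes, and the median log2 fold change was 0.18. SKA1, which couples kinetochores to microtubule ends, was by far the most abundant of them at 0h, with 3554, 3982, 3983 and 3106 FPKM, and read 85.1, 87.6, 65.4 and 90.2 FPKM at 46h (44.1-fold lower). At 22h it was still at 3676 to 4552 FPKM, within or above the range at 0h. The share of the list fell with SKA1, from 0.675% to 0.897% at 0h to 0.194% to 0.215% at 46h, although its median gene was higher at 46h. SPC24, of the NDC80 complex, fell from 238 ± 58.7 to 2.41 ± 0.65 FPKM, and CENPN, which reads the centromeric nucleosome, rose from 33.9 ± 7.84 to 97.3 ± 8.51 FPKM.

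Of 13 cohesin and shugoshin genes, 3 were called higher (23.1%) and none lower, beside 16.8% and 39.1% of all genes, and the median was 0.45 and above 0 under each scaling. SGO2, which protects cohesin at centromeres in the first division, rose from 70.9 ± 33.3 to 155 ± 27.4 FPKM. Of 16 genes of the spindle checkpoint and the Aurora and Polo kinases, 4 rose and 3 fell (18.8%). MAD2L1, the checkpoint protein that holds CDC20, rose from 393, 433, 341 and 177 FPKM to 720, 685, 649 and 802 FPKM, and BORA, an activator of Aurora kinase, from 30.5 ± 4.93 to 96.7 ± 12.4 FPKM. BIRC5, survivin of the chromosomal passenger complex, fell from 38.7 ± 6.12 to 1.85 ± 0.295 FPKM. PLK1, a Polo kinase, was low at both stages, at 2.61 ± 0.85 and 1.64 ± 1.004 FPKM, and was not called. In the anaphase-promoting complex, 3 of 11 genes rose and 3 fell, 27.3% each. CDC16 rose from 4.59 ± 1.47 to 14.4 ± 4.35 FPKM, CDC26, another subunit, fell from 94.8 ± 39.3 to 1.84 ± 0.29 FPKM, and CDC20, the activator, rose from 23.2 ± 1.99 to 47.7 ± 12.6 FPKM. Of 23 kinesins, 6 rose (26.1%) and 2 fell (8.70%), KIF18A, which dampens chromosome movement, being among those that rose (38.6 ± 10.03 to 69.0 ± 7.43 FPKM). Of 25 tubulins and dyneins, 14 fell, a larger share than of all genes, and 3 rose. These counts depend on the scaling. After median-of-ratios scaling 11 kinesins and 9 cohesin and shugoshin genes were called higher, beside 1852 of all 7016 genes. After quantile normalization 17 and 10 were, beside 2896 of all genes.

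The genes that define an oocyte were present at 0h and mostly fell. All 15 matched oocyte markers passed the filter, and 11 were called lower (73.3%) and 1 higher (6.67%), beside 39.1% and 16.8% of all genes, with a median log2 fold change of -1.87 that was -1.55 or lower under each scaling. They took 2.25% to 3.66% of total FPKM at 0h and 1.35% to 2.08% at 46h. ZP3, a glycoprotein of the zona pellucida, read 4337, 3292, 2760 and 1481 FPKM at 0h and 59.5, 71.7, 199 and 51.5 FPKM at 46h (33.5-fold lower, adjusted p = 1.54e-06 by limma). ZP4, another zona glycoprotein, read 7808, 6778, 5210 and 2665 FPKM at 0h and 1659, 1364, 3523 and 1912 FPKM at 46h, so replicate 3 of 46h overlapped the 0h libraries. Replicate 3 of 46h was the highest of its stage for both. GDF9, a growth factor that the oocyte sends to cumulus cells, read 1451, 1391, 806 and 287 FPKM at 0h and 36.1, 40.6, 33.3 and 41.0 FPKM at 46h (21.4-fold lower, adjusted p = 4.84e-06 by limma). BMP15, its close relative and partner, read 2177, 1737, 2902 and 5492 FPKM at 0h and 2418, 1980, 2793 and 2127 FPKM at 46h and was not called. The stages overlapped for BMP15 and did not for GDF9.

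Maternal-effect genes, whose products the embryo needs before its own genes turn on, included 5 called lower and none higher of 8 tested in the list of the subcortical maternal complex and other such genes, beside 39.1% and 16.8% of all genes. OOEP, a member of that complex, fell from 1473 ± 286 to 123.1 ± 20.7 FPKM. NLRP5, another member, fell from 3.92 ± 1.07 to 2.03 ± 0.47 FPKM, but the call was lost without replicate 1 of 0h (log2 fold change -0.56). After quantile normalization its log2 fold change was 0.001, where the median of all genes was 0.372. ZAR1, which binds stored mRNA, read 101.1, 91.5, 144 and 224 FPKM at 0h and 0.50, 1.16, 0.51 and 0.64 FPKM at 46h. Its paralog ZAR1L was not called, at 772 ± 256 and 835 ± 224 FPKM. Of 8 oocyte transcription factors, 6 fell and 1 rose, to be read beside the same shares. FIGLA, which directs zona genes during growth, fell from 49.99 ± 13.1 to 1.33 ± 0.34 FPKM, and FOXR1, a forkhead factor, rose from 296, 330, 269 and 162 FPKM to 769, 733, 1334 and 842 FPKM. H1-8, the linker histone of the oocyte, stood at 4154 ± 454 and 4821 ± 663 FPKM and was not called.

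Markers of other cells were few and low. Of 23 matched markers of cumulus and granulosa cells, 10 were at 0 in all 8 libraries and 3 passed the filter, and their summed share was 0.00601% to 0.0123% of total FPKM at 0h and 0.0148% to 0.0179% at 46h. Most of that sum was VCAN, a matrix proteoglycan, which rose from 58.3 ± 22.2 to 126 ± 14.4 FPKM. Of 12 matched markers of theca and stroma, 4 were at 0 in all 8 libraries, and the sum was 0.00308% to 0.00403% at 0h and 0.000272% to 0.000418% at 46h. Most of it at 0h was TAGLN, transgelin of smooth muscle, which went from 23.8 ± 2.87 to 0.54 ± 0.29 FPKM. Of 12 matched markers of blood and vessel cells, 6 were at 0 in all 8 libraries, and the sum was 0.00149% to 0.00232% at 0h and 0.00316% to 0.00345% at 46h. For each of the 3 lists the stages did not overlap. The part of these cells in the results was not tested.

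Genes for the handling of maternal mRNA were read by role. Of 18 genes for mRNA storage and repression, 10 were called lower (55.6%) and 1 higher, beside 39.1% and 16.8% of all genes (median -0.92). YBX2, which packages stored mRNA in germ cells, read 15.7, 8.40, 26.2 and 26.7 FPKM at 0h and 0, 0.13, 0.45 and 0.24 FPKM at 46h. PAIP2, which is not on that list and is one of the 10 largest falls, codes for a repressor that displaces poly(A)-binding protein. It read 405, 435, 390 and 223 FPKM at 0h and 2.35, 2.07, 1.78 and 1.13 FPKM at 46h (126-fold lower). Both were below the 0h range in every 46h library. PATL1, which joins the decapping machinery to repressed mRNA, rose from 5.24 ± 0.90 to 10.4 ± 1.61 FPKM. Of 13 genes of the cytoplasmic polyadenylation machinery, 2 fell (15.4%), 1 rose (7.69%) and 10 were not called. CPEB1, the protein that binds the element, read 34.4, 21.0, 29.3 and 21.8 FPKM at 0h and 36.2, 41.9, 40.1 and 31.4 FPKM at 46h, and missed the fold threshold (1.41-fold, adjusted p = 0.044 by limma).

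Of 24 genes of mRNA decay, 6 were called higher and 6 lower, beside 16.8% and 39.1% of all genes. Their share of total FPKM went from between 1.84% and 2.48% at 0h to between 3.45% and 3.91% at 46h, and most of it was BTG4. YTHDF2, which recruits the deadenylase to methylated mRNA, rose from 41.3, 35.8, 46.2 and 56.7 FPKM to 86.4, 93.6, 131 and 106 FPKM. ZFP36L2, a protein that marks AU-rich mRNA for decay, fell from 4.50 ± 1.72 to 0.195 ± 0.090 FPKM. The median of this list (-0.06) lay 0.192 above that of all genes. It lay 0.184 above it both under median-of-ratios scaling and under quantile normalization.

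Of 41 nuclear pore and transport receptor genes, 16 were called higher (39.0%) and 10 lower (24.4%), beside 16.8% and 39.1% of all genes. Their median log2 fold change of 0.21 was above 0 under each scaling. NDC1, which anchors pores in the membrane, rose from 107, 90.5, 75.3 and 37.2 FPKM to 196, 254, 219 and 215 FPKM. XPO1, the main protein exporter, fell from 37.9 ± 10.7 to 1.43 ± 0.33 FPKM. KPNA7, an importin of oocytes and early embryos, went from 3574 ± 778 to 5763 ± 1207 FPKM, a call that was lost without replicate 4 of 0h (log2 fold change 0.55) and without replicate 2 of 46h (adjusted p = 0.0516 by limma). Of 46 genes of the DNA damage response and recombination, 14 rose (30.4%) and 11 fell (23.9%). CHEK1, the checkpoint kinase of stalled replication, rose from 16.8, 20.5, 11.14 and 6.67 FPKM to 61.9, 70.5, 61.5 and 71.5 FPKM, whereas CHEK2, the kinase that answers DNA double-strand breaks, fell from 16.3 ± 4.70 to 2.05 ± 0.098 FPKM.

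Of 21 genes that license DNA replication, a process that the oocyte skips between its divisions and the zygote resumes, 7 fell (33.3%) and 5 rose (23.8%), beside 39.1% and 16.8% of all genes. GMNN, geminin, which blocks licensing, rose from 197, 216, 193 and 148 FPKM to 490, 470, 476 and 494 FPKM. ORC6, a subunit of the origin recognition complex, rose from 249 ± 70.04 to 597 ± 60.95 FPKM, while ORC4, another subunit, fell from 11.4 ± 2.91 to 2.10 ± 0.34 FPKM. Of 34 genes that methylate or demethylate histone lysines, 12 fell (35.3%) and 9 rose (26.5%). SETDB1, which methylates lysine 9 of histone H3, fell from 62.3 ± 18.8 to 5.50 ± 0.88 FPKM, and KMT2E, a reader of active chromatin, rose from 10.4 ± 2.53 to 25.9 ± 3.98 FPKM. Of 66 genes of the transcription machinery, 26 fell and 13 rose, which is 39.4% and 19.7%. Of 103 ZNF zinc finger genes, most of them likely transcription factors by their domain, 31 fell (30.1%) and 15 rose (14.6%).

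Metabolic and membrane classes are read beside the 39.1% called lower and 16.8% called higher of all genes. Of 18 antioxidant enzymes, 11 were called lower (61.1%) and 2 higher. PRDX1, a peroxiredoxin that removes peroxide, read 1018, 837, 1137 and 1047 FPKM at 0h and 35.2, 37.2, 41.3 and 37.2 FPKM at 46h (26.0-fold lower, adjusted p = 1.74e-09 by limma). CAT, catalase, which acts on the same substrate, rose from 35.7 ± 18.4 to 85.8 ± 17.8 FPKM. Of 37 genes of pyruvate use, glycolysis and the TCA cycle, 22 fell (59.5%) and 5 rose (13.5%). MDH1, the cytosolic malate dehydrogenase, fell from 143 ± 15.01 to 1.91 ± 0.69 FPKM, and SUCLG2, a subunit of succinyl-CoA ligase, rose from 61.2 ± 2.76 to 194 ± 19.0 FPKM. Of 79 solute carriers outside the mitochondria, 23 fell (29.1%) and 19 rose (24.1%), with a median log2 fold change of 0.077. SLC39A8, a zinc importer, was among those that rose, from 31.7 ± 15.1 to 102.4 ± 17.3 FPKM. Of 24 autophagy genes, 10 fell (41.7%) and 4 rose (16.7%), near the shares of all genes. MAP1LC3B, which coats the forming autophagosome, fell from 411 ± 32.3 to 21.1 ± 5.51 FPKM.

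Signalling that holds the oocyte in prophase runs through cyclic AMP and protein kinase A, and few of its genes reached the filter. Of 24 matched, 6 were tested, and 3 were called higher and none lower, beside 16.8% and 39.1% of all genes, with a median log2 fold change of 0.53 that was above 0 under each scaling. PDE8A, a phosphodiesterase that breaks down cyclic AMP, read 10.9, 10.2, 12 and 11.5 FPKM at 0h and 21.1, 18.3, 27.8 and 20.4 FPKM at 46h. PRKAR1A, a regulatory subunit of the kinase, rose from 18.4 ± 1.24 to 30.2 ± 5.11 FPKM, a call that TPM took under the fold threshold (log2 fold change 0.575). In calcium release and entry, the signal that ends metaphase II arrest at fertilization, 4 of 11 genes fell (36.4%) and 2 rose (18.2%), near the shares of all genes. CALM3, which codes for the calcium sensor calmodulin, fell from 114, 121, 140 and 165 FPKM to 3.72, 2.74, 3.15 and 1.14 FPKM. Every 46h library was far below the 0h range. CALM2, the most abundant gene of the list, read 3481 ± 1635 and 1827 ± 202 FPKM, and its call as lower was lost without replicate 4 of either stage (log2 fold change -0.548 without that of 0h, adjusted p = 0.0503 by limma without that of 46h).

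RNA processing classes are read in the same way. Of 43 spliceosome genes, 20 were called lower (46.5%) and 8 higher (18.6%). Their median was -0.41, and 0.030 after quantile normalization, which lay -0.16 and -0.342 from that of all genes. LSM4, of the ring that binds U6 RNA and decapped mRNA, fell from 210 ± 16.8 to 5.15 ± 0.85 FPKM, and SNRNP40, a protein of the U5 particle, rose from 522, 474, 443 and 338 FPKM to 1095, 1134, 1225 and 1041 FPKM. Of 38 DEAD and DEAH box helicases, which unwind RNA, 22 fell (57.9%) and 2 rose (5.26%). DDX39B, a helicase of mRNA export, fell from 55.6 ± 8.51 to 2.14 ± 0.40 FPKM. Of 16 genes of the small RNA pathway, 7 fell (43.8%) and 1 rose (6.25%). GTSF1, a partner of PIWI proteins, read 333, 347, 338 and 312 FPKM at 0h and 19.5, 29.4, 23.7 and 30.9 FPKM at 46h, and HENMT1, which methylates the ends of piRNA, rose from 518 ± 140 to 1041 ± 223 FPKM. Both pairs of examples had stages that did not overlap.

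In membrane traffic, 9 of 23 RAB GTPases fell (39.1%) and 1 rose (4.35%), and 16 of 43 secretory genes of the endoplasmic reticulum and Golgi fell (37.2%) and 7 rose (16.3%). The shares that fell were near the 39.1% of all genes. ARF4, a small GTPase of the Golgi, rose from 479, 433, 317 and 162 FPKM to 967, 1340, 1384 and 1267 FPKM (3.82-fold). RAB28 rose from 27.4 ± 7.99 to 58.2 ± 14.7 FPKM, and RAB8B, which acts in traffic to the plasma membrane, fell from 63.3 ± 10.3 to 19.6 ± 3.69 FPKM. Of 22 lysosomal genes, 10 fell and 4 rose. CTSB, the protease cathepsin B, fell from 237, 149, 210 and 233 FPKM to 2.46, 2.97, 3.41 and 4.43 FPKM, whereas GLA, an enzyme that removes galactose from glycolipids, rose from 54.0 ± 9.24 to 141 ± 23.9 FPKM. Lysosomal enzymes thus went both ways within the same organelle.

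Lipid classes were small. Of 14 cholesterol synthesis genes, 5 fell (35.7%) and 2 rose (14.3%), near the 39.1% and 16.8% of all genes. IDI1, which makes an early isoprenoid building block, fell from 71.8 ± 16.1 to 1.02 ± 0.34 FPKM, and MSMO1, which acts later on sterols, rose from 139, 179, 120 and 70.1 FPKM to 344, 272, 333 and 361 FPKM. Of 10 genes of lipid droplet storage and lipolysis, 6 fell and 1, HILPDA, rose. Among 8 histones, 5 fell and 1 rose. H2AJ, a variant of H2A, was at 42.2 ± 19.1 FPKM at 0h and listed at 0 in all 46h libraries but replicate 3, and H2AZ1, another variant, rose from 96.9 ± 9.95 to 220 ± 20.4 FPKM. Of 10 genes of DNA methylation and imprint protection, 2 fell and 2 rose, and of 22 genes of the actin machinery that moves the spindle, 8 fell (36.4%) and 1 rose (4.55%), the former near the share of all genes. ARPC3, a subunit of the ARP2/3 complex that branches actin, fell from 204 ± 25.4 to 5.63 ± 1.16 FPKM.

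Of the 10 largest rises among genes with a symbol whose stages did not overlap, 3 were outside the mitochondrial genome. APH1B, a subunit of gamma-secretase, read 1.11, 1.03, 1.2 and 1.2 FPKM at 0h and 35.9, 30.8, 34.9 and 25.5 FPKM at 46h (15.2-fold, adjusted p = 4.92e-09 by limma). BTBD9, a protein with a BTB domain, read 1.19, 1.15, 1.43 and 1.38 FPKM at 0h and 30.99, 32.6, 18.4 and 45.3 FPKM at 46h (13.7-fold). SNX7, a sorting nexin of endosomes, was abundant at both ends and read 686, 917, 584 and 181 FPKM at 0h and 3182, 3373, 3182 and 3998 FPKM at 46h. The stages were far apart for each of the 3. The largest fall among genes with a symbol was that of CNIH4, which carries cargo out of the endoplasmic reticulum, at 1002, 877, 1392 and 1719 FPKM at 0h and 0.94, 1.79, 2.19 and 1.37 FPKM at 46h (477-fold lower, adjusted p = 5.85e-10 by limma). It went from rank 81 to rank 5233. Its 22h libraries read 284 to 513 FPKM. MIX23 (1542 ± 427 to 3.10 ± 0.51 FPKM), PDCD5, a gene linked to programmed cell death (1403 ± 381 to 9.13 ± 3.55 FPKM), and MYL6, a myosin light chain (545 ± 234 to 3.81 ± 1.38 FPKM), were among the 10 largest falls.

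Some genes were listed at 0 throughout one stage. There were 64 genes at 0 in all 46h libraries with a mean of at least 1 FPKM at 0h, 38 of them with a symbol, and 4 genes without a symbol at 0 in all 0h libraries with a mean of at least 1 FPKM at 46h. Among the 38 were PET100, an assembly factor of cytochrome c oxidase, with a 0h mean of 75.5 FPKM, and SMIM26, a small membrane protein, with 15.4 FPKM. Since ribosomal protein genes, which every cell uses, were among those at 0, no fold is given for this set.

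The ends of the transcripts were then read for the elements that govern tails in oocytes. Of the genes tested, 5646 (80.5%) matched 1 RefSeq coding transcript each (Sscrofa11.1), and the last 150 bases of that transcript were searched on the sense strand for TTTTAT or TTTTAAT, the cytoplasmic polyadenylation element. The element was present in 28.1% of these genes and in 21.2% of all 16282 annotated genes so treated. It does not overlap a poly(A) signal (AATAAA or ATTAAA) in 26.3%. In 781 of the matched genes (13.8%) the annotated 3' untranslated region is shorter than 150 bases, so the window reaches into coding sequence, and the share with the element was 30.5% of the other 4865. The sequences shown all lie in the 3' untranslated region. A match is a description of the annotated end, which need not be the end used in oocytes. The ends shown here are those of named genes called in the comparison, chosen after their values were seen. Each is a window of 30 bases, 5' to 3' on the strand of the gene and written as DNA, with capitals for the element and the poly(A) signal. The windows of PATL1, RARS2, TAF9, KMT2E, ZNF567 and HILPDA, which rose, and of OTUB1, which fell, were all of those with an element starting 24 bases or fewer before the last signal, out of 124 called named genes with a matched transcript. Named genes were picked largely by their change, so how these windows divide between rises and falls is not a result about the element.
PATL1: TTTTATagggtattgtaAATAAAaacaaat
RARS2: TTTTATtaagtgatttatcaacttATTAAA
TAF9: TTTTATcagcctttaagtgtaaaaAATAAA
KMT2E: TTTTAATtcatgttAATAAAtcacaattat
ZNF567: TTTTATaattttgtgttAATAAAgatactg
HILPDA: TTTTAATgaAATAAAgttgaatgtgtttca
OTUB1: tccatgTTTTATTAAAggggacgctggtgg
In OTUB1 the element and the signal share bases. PATL1 lies at chr2:11857653-11857682 (plus strand), TAF9 at chr16:47494861-47494890 (minus strand) and OTUB1 at chr2:8088528-8088557 (minus strand). TAF9, a subunit shared by transcription complexes, rose from 324 ± 113 to 821 ± 80.0 FPKM, and HILPDA, a protein of lipid droplets, from 190 ± 35.4 to 468 ± 144 FPKM.

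BTG4, CCNB1 and WEE2 also hold the element, at 96, 51 and 93 bases from its start to the start of the last signal. Their windows are shown because these 3 genes were called higher and belong to the fixed list of genes to be named.
BTG4: acatgaagTTTTATgtaaccctagtgaatg
CCNB1: aatgagaaTTTTAATttatattcaaaacct
WEE2: ctccttgaTTTTATcagaaattggcttttc
They lie at chr9:39253212-39253241 (minus strand), chr16:47348304-47348333 (plus strand) and chr18:8171241-8171270 (minus strand). The next ends were picked for lacking the element, so they are no contrast by direction. DNMT1, TOMM20 and GTSF1, also called lower, hold the element and are not shown. The largest named falls with a poly(A) signal and without the element in the window searched end as follows, with the signal in capitals.
PDCD5: aaagttgttctagtaccatagctaAATAAA
PAIP2: tattttttcaaaaatatttaaaaaAATAAA
NDUFB7: taccaccctgtggaccagtcaagaAATAAA
MYL6: gatgtttgccatcagcatttaccaAATAAA
The absence of these letters says nothing of other binding sites in the same ends. PDCD5 lies at chr6:42491543-42491572 and MYL6 at chr5:21562373-21562402, both on the plus strand.

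Over all matched genes, those with the element stood higher at 46h relative to the rest. The 1588 genes with it had a median log2 fold change of 0.085, and 23.4% were called higher and 26.5% lower. The 4058 genes without it had a median of -0.35, and 14.4% were called higher and 42.4% lower. The difference of the medians was 0.44. Among genes whose 3' untranslated region has at least 150 bases, a restriction chosen after seeing the data, the medians were 0.098 and -0.285 (1484 and 3381 genes), and the genes with the element were higher in each of 5 bins of length and of GC content. When the matched genes were cut into 10 equal bins by their change, the share with the element was 17.0% among the largest falls and 39.5% among the largest rises. Genes are not independent replicates, so no test is given. ID3, which rose among the most abundant genes, holds the element, and so do DNMT1, HSPE1 and TOMM20, which fell, so single genes did not follow the median.

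Transcript length and base composition moved along with the change too. In the bin of shortest transcripts out of 10, with a median of 854 bases, the median log2 fold change was -1.18 and 60.0% were called lower. In that of the longest, with a median of 9707 bases, it was 0.031 and 23.9% were called lower. By GC content, the bin of lowest GC (median 37.1%) had a median change of 0.17, and that of highest (median 60.9%) one of -1.10. Genes with the element were longer and lower in GC, so the comparison was repeated within 5 equal bins of each. In the shortest bin the medians were -0.11 with the element and -1.22 without it, and in the longest bin 0.12 and -0.086. In the bin of lowest GC they were 0.28 and 0.088, and in that of highest GC -0.14 and -1.10. The genes with the element were thus higher in each of the 5 bins of length and of GC, by more in short and GC-rich transcripts. Short transcripts take in many of the ribosomal and respiratory chain genes described above (median lengths of 771 and 805 bases over the members with a transcript), and the share of length in the change of these classes was not tested. Genes called lower matched a transcript in 78.1% of cases, so their ends are not described as a set, and the bins by change cover matched genes only.

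**Figure D5:**
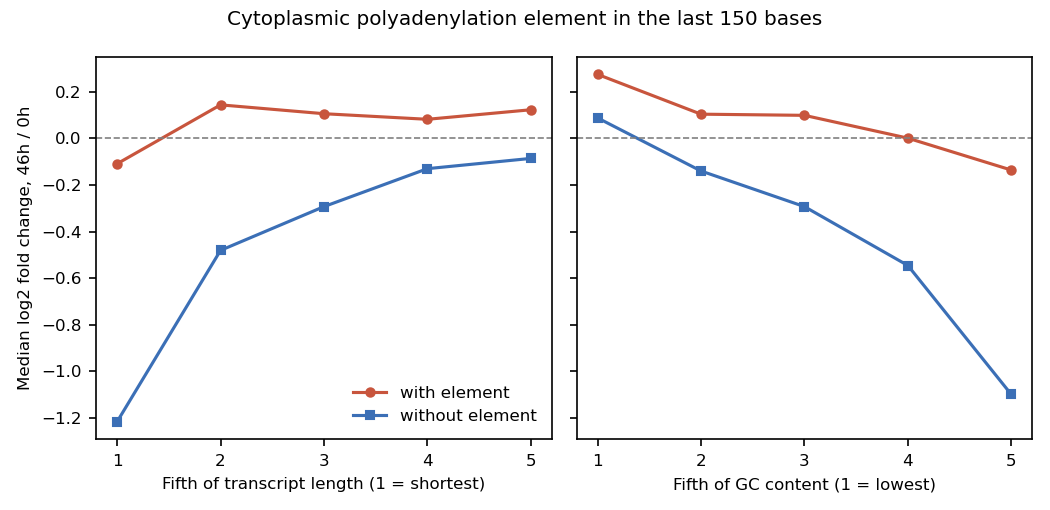
Median log2 fold change, 46h minus 0h on the log2(FPKM + 1) scale (y axis), of genes with and without a cytoplasmic polyadenylation element in the last 150 bases, within 5 equal bins of transcript length and of GC content (x axis). Genes with the element lie above those without it in each bin, and the gap is widest in the shortest bin, at -0.11 and -1.22.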

How the data were processed

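The authors trimmed reads with Trim Galore, aligned them to Sscrofa11 with STAR and quantified genes with RSEM (FastQC and HTSeq are also named in the submitters' processing notes), and deposited one FPKM value per Ensembl gene and library, with 2 decimals. How reads shared between similar genes were split is set by RSEM and not given in the sources used here. FPKM is relative to the library, so a rise of abundant genes lowers all others. No counts were used, and depth and counting intervals are unknown.

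Groups are the labelled 0h and 46h samples, 4 each. Nothing states that replicates came from separate animals or cultures, so p-values measure the spread between these samples, which may be technical. Genes of mean FPKM of at least 1 over the 8 libraries were fitted as log2(FPKM + 1) with limma 3.58.1 (trend) in R 4.3.3. The test was two-sided with Benjamini-Hochberg adjustment over 7016 genes, and calls needed an adjusted p under 0.05 and a fold change over 1.5. The fit was tested on simulated data. Single values per library were compared by an exact permutation test. Symbols came from a name table (15029 of 31908 genes), and transcript ends, lengths and GC content from RefSeq (Sscrofa11.1) by symbol, 1 transcript per gene. The 55 gene lists were written by hand. The members, lists and tests were chosen with earlier results of these data known.

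The genes named are the 10 largest rises and falls among called genes with a symbol and non-overlapping stages, the 10 highest genes of each stage, from each list the called member of largest rise, of largest fall and the most abundant member, and 16 fixed genes, of which DAZL and AURKA had no matching symbol. Alternatives were other scalings, filters, pseudocounts, thresholds, fits and each library left out. Software was matplotlib 3.10.9, scipy 1.17.1, pandas 2.3.3 and numpy 2.4.6 under Python 3.11.15. Metabolomic data were not analysed here.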

Additional observations from a re-analysis of the deposited data

Results flagged for a closer look

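In groups of 4 libraries, 1 library stood far from the other 3 (Dixon's criterion) in 21 of 354 groups looked at, and chance gives about 1 in 20. Of these, 7 were in replicate 4 of 0h and 7 in replicate 3 of 46h. In replicate 4 of 0h, UBE2C (684 FPKM, others from 1400), PRKAR1A (16.6), LSM4 (185) and UCHL1 (1769, others from 3608) were low, and SNRPE (3621, others up to 1328), MRPS14 (4489, others up to 2542) and H2AJ (70.7) were high. In replicate 3 of 46h, ZP3 (199 FPKM, others up to 71.7), ZFP36L2 (0.33), H2AJ (0.52, others at 0), BCL2L1 (12.1), CDC20 (66.5, others up to 42.6) and PLK1 (3.14) were high and VCAN (105) was low. Replicate 1 of 46h had 598 genes at or above 100 FPKM, where the others had 629 to 635, and read 688 FPKM for TOMM7 and 6222 FPKM for UBE2D3. The remaining 4 were MAP2K1 in replicate 2 of 0h (27.3 FPKM), EIF1 in replicate 1 of 0h (558 FPKM), DDX55 in replicate 2 of 46h (90.01 FPKM) and DNAJB6 in replicate 4 of 46h (7.25 FPKM).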

How the results depend on the processing

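The scaling moved the split most. Median-of-ratios scaling called 1852 genes higher (median log2 fold change of all genes -0.004), and quantile normalization 2896 higher and 1799 lower (61.7% higher, median 0.372). With no filter the median was -0.054. With a mean of at least 5 FPKM, 2540 genes were called, 1565 of them lower (median -0.089), since fewer genes were tested. At a fold change over 2, 512 genes were higher (19.0%). The cause of the other shifts was not tested. The highest of 10 bins by abundance lay 0.043 above all genes after quantile normalization. The lowest bin, at -0.125 against all genes, moved to -0.204 with median-of-ratios scaling, -0.037 with quantile normalization, -0.351 with a pseudocount of 0.1 and -0.185 with TPM computed without the mitochondrially encoded genes. The share of the 10 highest genes without mitochondrially encoded genes differed by 6.971 percentage points and no longer passed the test. Total FPKM, not past the test, turned from 54853 higher at 46h to -42446 without those genes. In genes whose 3' untranslated region has at least 150 bases, chosen after seeing the data, the medians with and without the element differed by 0.383, against 0.437. NLRP5 lay at 0.001 after quantile normalization, where the median of all genes was 0.372. Leaving out each library in turn gave 3774 to 4008 called genes, 1093 to 1306 higher and 2661 to 2830 lower, and -0.155 to -0.113 for the lowest bin. Of 146 called named genes, 18 lost the call in at least 1 alternative and 13 when 1 library was left out. Only NLRP5 among the 146 changed sign, to the 0.001 given above, a value below the median of all genes under that scaling. Same-numbered libraries of the stages did not deviate together (correlations of -0.239, 0.08, -0.038 and -0.281, beside -0.196 to 0.322 for the other pairs). Whether same-numbered libraries shared a collection or culture is not stated, and so few correlations cannot decide it. With the replicate block, 3880 genes were called, 1149 higher and 2731 lower, 3863 of them also called without it. Since FPKM carries no counts, how far depth limits low genes is unknown.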
